A study of Mus musculus with 19 samples.

Results

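Mast cells were followed in primary mouse sarcomas through 9 genes: the granule protease genes Cpa3, Cma1, Mcpt4, Tpsb2 and Tpsab1, the receptor genes Kit, Fcer1a and Ms4a2, and Hdc. The genes were chosen by name, as established mast cell genes, out of 48795 genes in the deposited expression table, and all 9 were among the 16663 genes that passed a filter on low values. Bulk RNA sequencing had been performed on 19 p53/MCA sarcomas, 11 from Rag2-/- mice, which lack T and B lymphocytes, and 8 from Rag2+/- mice, which keep 1 working Rag2 allele and make both. The study made tumors in both hosts to test whether the immune system selects against tumor cells, and the genes that carry their mutations, as a sarcoma develops.

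All 19 tumors were started in the same way, in mice between 6 and 10 weeks old. An adenovirus that carried Cas9 and a guide RNA against Trp53 was injected into the gastrocnemius, a calf muscle, and was followed by 300 µg of the carcinogen 3-methylcholanthrene (MCA) in sesame oil at 6 µg/µl. The mice received no other treatment, and tumors were taken at about 70 to 150 mm3. Each title carries a number of its own, so each library was read as the tumor of a separate mouse, and tumors are named here by the library number in their labels (S41 to S60). A whole piece of tumor was sequenced, so that fewer mast cells and less RNA per mast cell cannot be told apart in any result given here.

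Mast cells are tissue-resident cells of the blood lineage that depend on Kit, the receptor for stem cell factor, and that store proteases and histamine in granules. Antigen that crosslinks IgE on the high-affinity IgE receptor makes them release those granules. In mice, mast cells of connective tissue such as skin and muscle are known for the chymases encoded by Cma1 and Mcpt4, the tryptase encoded by Tpsb2 and carboxypeptidase A3, and mast cells of mucosa for the chymases encoded by Mcpt1 and Mcpt2.

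The promoters of the genes are shown first. They were searched for the letters GATA, which Gata1 and Gata2, transcription factors of the mast cell lineage, bind. RefSeq promoter sequences (build GRCm38.p6) were matched for 7 of the 9 genes. Tpsb2 and Tpsab1 had no entry. The 250 bases before the start site are printed 5′ to 3′ for 3 granule protease genes that varied together. They are also printed for Ms4a2, whose promoter held the most matches, and for Hdc, which followed Cpa3 least closely. Capitals mark the letters GATAA or GATAG where an A or a T precedes them, on either strand.
Cpa3: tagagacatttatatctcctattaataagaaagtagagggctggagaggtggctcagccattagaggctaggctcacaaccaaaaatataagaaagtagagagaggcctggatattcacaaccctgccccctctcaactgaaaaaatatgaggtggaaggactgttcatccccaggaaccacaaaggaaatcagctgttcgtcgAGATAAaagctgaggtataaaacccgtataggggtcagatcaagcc
Cma1: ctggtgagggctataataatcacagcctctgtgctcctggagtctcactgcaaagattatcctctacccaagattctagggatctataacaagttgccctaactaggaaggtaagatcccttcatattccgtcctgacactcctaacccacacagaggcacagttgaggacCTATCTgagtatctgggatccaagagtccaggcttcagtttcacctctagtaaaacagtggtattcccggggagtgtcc
Mcpt4: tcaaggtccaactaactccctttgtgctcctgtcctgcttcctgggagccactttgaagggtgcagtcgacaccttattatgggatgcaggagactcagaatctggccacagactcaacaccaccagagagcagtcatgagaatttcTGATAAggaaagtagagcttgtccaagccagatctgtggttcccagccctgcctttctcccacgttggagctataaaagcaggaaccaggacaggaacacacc
Ms4a2: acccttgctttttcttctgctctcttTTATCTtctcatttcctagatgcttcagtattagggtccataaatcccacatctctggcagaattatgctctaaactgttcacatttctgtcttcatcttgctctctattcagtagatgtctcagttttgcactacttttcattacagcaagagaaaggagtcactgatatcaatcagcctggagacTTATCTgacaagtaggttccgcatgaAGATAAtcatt
Hdc: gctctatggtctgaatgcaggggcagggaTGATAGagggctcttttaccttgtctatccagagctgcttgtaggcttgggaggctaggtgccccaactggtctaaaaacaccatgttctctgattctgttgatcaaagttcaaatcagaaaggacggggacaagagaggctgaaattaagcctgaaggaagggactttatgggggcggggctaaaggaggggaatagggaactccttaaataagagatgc
The Cpa3 window is chr3:20242182-20242431 (minus strand), the Cma1 window chr14:55944676-55944925 (minus strand), the Mcpt4 window chr14:56062311-56062560 (minus strand), the Ms4a2 window chr19:11623720-11623969 (minus strand) and the Hdc window chr2:126618679-126618928 (minus strand). Such a GATA match was found in 6 of the 7 promoters, against 26.5% of 32851 promoters of the same length. The Ms4a2 promoter held 3 matches, those of Cpa3, Cma1, Mcpt4, Fcer1a and Hdc 1 each, and that of Kit none. The letters CATGTG or CACGTG on either strand, one form of E-box, were found in the promoter of Fcer1a alone among the 7, against 17.6% of all promoters. A match describes letters only and was not tested as a binding site.

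Depth was estimated from the steps between low values, since the table holds normalized values and not counts. It came to between 24.9 M and 33.8 M fragments (M, mega) in 18 tumors and to 5.25 M in the Rag2-/- tumor S41. The Rag2+/- tumor S56 was the other library that stood apart: 1 fragment per kilobase was worth 0.0847 normalized FPKM there, against 0.0341 to 0.0657 in the other 17 tumors outside S41. The 9 genes rested on few fragments compared with that depth. Per tumor, an estimated 131 to 1463 fragments came from Cpa3, 18 to 715 from Kit, 0 to 236 from Tpsab1 and 0 to 74 from Ms4a2. Rag2 itself lay above the floor in all 19 tumors, at a median log2 level of -0.16 in Rag2-/- and -1.13 in Rag2+/- tumors. Which part of Rag2 the null allele removes is not given in the sources used here, so this value does not check the labels. The lymphocyte genes do: of 22 genes that differed between genotypes in limma at an adjusted p under 0.05 (0.132% of the 16663 genes tested), all were lower in Rag2-/- tumors, among them 7 of 10 T cell markers. That count was 41 without the Rag2-/- tumor S51, 42 in the 15 tumors that the study lists in its source data for this model and 4 among genes with a mean log2 value above 0.

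Mast cell genes were detected in tumors of both genotypes, and their levels overlapped. Levels are log2(normalized FPKM + 0.1), whose floor at no fragment is -3.32. Cpa3, which encodes the carboxypeptidase stored in nearly all mouse mast cells, had a lowest, median and highest level of 1.75, 3.73 and 5.31 in the 11 Rag2-/- tumors and of 2.98, 3.68 and 5.21 in the 8 Rag2+/- tumors. Both medians were close to 3.7, and the lowest Rag2-/- tumor, S48, was below all others.

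The chymase genes, with Tpsb2, were at the top of the set. Cma1 had a lowest, median and highest level of 2.54, 4.64 and 6.20 in Rag2-/- tumors and of 3.12, 4.69 and 5.67 in Rag2+/- tumors. Mcpt4 ran from 2.55 through a median of 4.60 to 6.03 in Rag2-/- tumors and from 3.14 through 4.26 to 5.74 in Rag2+/- tumors. For both genes the same Rag2-/- tumors, S47 and S48, marked the top and the bottom of the whole series, and every Rag2+/- tumor lay between them.

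The tryptase genes differed from each other in level. Tpsb2 ranged from 1.62 through a median of 4.22 to 5.78 in Rag2-/- tumors and from 3.04 through 4.47 to 5.34 in Rag2+/- tumors. Tpsab1, its neighbor on chromosome 17, ranged from the floor of -3.32 through 0.35 to 3.03 in Rag2-/- tumors and from the floor through 0.42 to 1.53 in Rag2+/- tumors. One tumor of each genotype, S48 and S56, had no Tpsab1 fragment, and the highest Tpsab1 level was in the shallow tumor S41 at an estimated 75 fragments. GENCODE vM21 annotates Tpsab1 as protein coding, while RefSeq for GRCm38.p6 lists it as a transcribed pseudogene.

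The receptor genes were lower than the main granule proteases. Kit had a lowest, median and highest level of 0.08, 1.24 and 2.06 in Rag2-/- tumors and of -1.35, 1.39 and 2.52 in Rag2+/- tumors. Fcer1a, the IgE-binding alpha chain of the high-affinity IgE receptor, ranged from -1.12 through 1.36 to 3.15 in Rag2-/- tumors and from 0.69 through 1.45 to 3.04 in Rag2+/- tumors. Ms4a2, the beta chain of that receptor, ranged from -2.18 through -0.90 to 0.24 in Rag2-/- tumors and from the floor of -3.32 through -1.10 to 0.75 in Rag2+/- tumors. The Rag2+/- tumor S56 was the lowest tumor of all for Kit, and the Rag2+/- tumor S60 was the one without a Ms4a2 fragment. S60 was above the Rag2+/- median for the other receptor genes, at 1.59 for Kit and 1.66 for Fcer1a.

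Hdc encodes histidine decarboxylase, which makes histamine. It ranged from 0.93 through a median of 2.34 to 4.12 in Rag2-/- tumors and from -0.19 through 1.60 to 3.52 in Rag2+/- tumors. The tumor at its top, S51, was below the Rag2-/- median for Cpa3, at 3.33, while the next, S55, was also high for Cpa3, at 4.68.

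**Figure D1:**
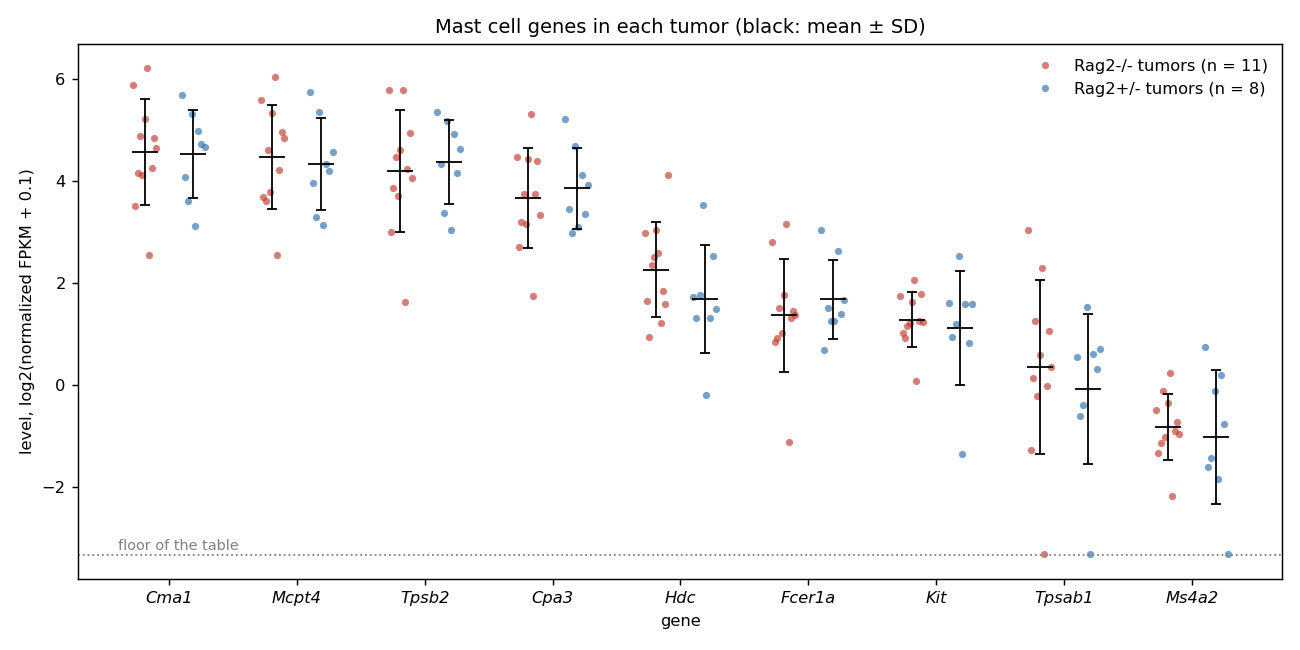
Level of each of the 9 mast cell genes (y axis, log2 of normalized FPKM plus 0.1) in 11 Rag2-/- tumors (red points) and 8 Rag2+/- tumors (blue points), with black bars for mean ± SD and a dotted line for the floor at -3.32. For every gene the points of both genotypes overlap, and 3 points lie at the floor, 2 for Tpsab1 and 1 for Ms4a2.

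None of the 9 genes differed between genotypes beyond the spread between tumors. In limma 0 of 9 passed an adjusted p under 0.05, against 0.132% of all genes tested, and 0 of 9 passed an unadjusted p under 0.05, against 15.4% of all genes. An exact permutation test over all 75582 relabelings of the tumors also called 0 of 9, with a two-sided p from 0.229 for Hdc to 0.916 for Cma1. The groups overlapped for all 9 genes.

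Differences are given as the mean log2 level in Rag2-/- tumors minus that in Rag2+/- tumors, with limma's standard error. The protease genes were within 0.43 of 0 in either direction. Cpa3 averaged 3.65 ± 0.98 (SD, n = 11) in Rag2-/- and 3.85 ± 0.79 (SD, n = 8) in Rag2+/- tumors, and the genotypes differed by -0.19 (SE 0.40, limma adjusted p = 0.789). Cma1 differed by 0.05 (SE 0.42, limma adjusted p = 0.955) and Mcpt4 by 0.15 (SE 0.42, limma adjusted p = 0.854). The tryptase genes differed by -0.18 for Tpsb2 (SE 0.46, limma adjusted p = 0.833) and by 0.43 for Tpsab1 (SE 0.70, limma adjusted p = 0.734). The signs were mixed, with 6 genes above and 3 below 0, and the median of the 9 differences was 0.15 beside 0.07 over all genes tested. That balance depended on the tumors used. In the 15 tumors that the study lists in its source data, 8 of the 9 differences were below 0 and that of Ms4a2 was 0.0025, with -0.46 for Cpa3, -0.61 for Tpsb2 and -0.61 for Fcer1a as the farthest from 0, and 0 of 9 were called.

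The receptor genes and Hdc were no different in this respect. Kit averaged 1.28 ± 0.54 (SD, n = 11) in Rag2-/- and 1.11 ± 1.12 (SD, n = 8) in Rag2+/- tumors, and the genotypes differed by 0.17 (SE 0.37, limma adjusted p = 0.809). Fcer1a differed by -0.32 (SE 0.43, limma adjusted p = 0.685) and Ms4a2 by 0.20 (SE 0.44, limma adjusted p = 0.806), so the alpha and beta chains of the IgE receptor had opposite signs, neither past the test. Hdc had the largest difference in the 19 tumors, 0.57 (SE 0.43, limma adjusted p = 0.467), its 95% interval ran from -0.33 to 1.48, and in the 15 tumors it was at -0.12. The interval of Cpa3 ran from -1.02 to 0.63 and that of Cma1 from -0.83 to 0.92, so these tumors leave room for a lower or a higher level in Rag2-/- tumors within those bounds. Leaving out the Rag2+/- tumor S56 turned the sign of 4 of the differences, to -0.15 for Cma1, -0.034 for Tpsab1, -0.0195 for Mcpt4 and -0.18 for Kit, and left all 9 short of the test.

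**Figure D2:**
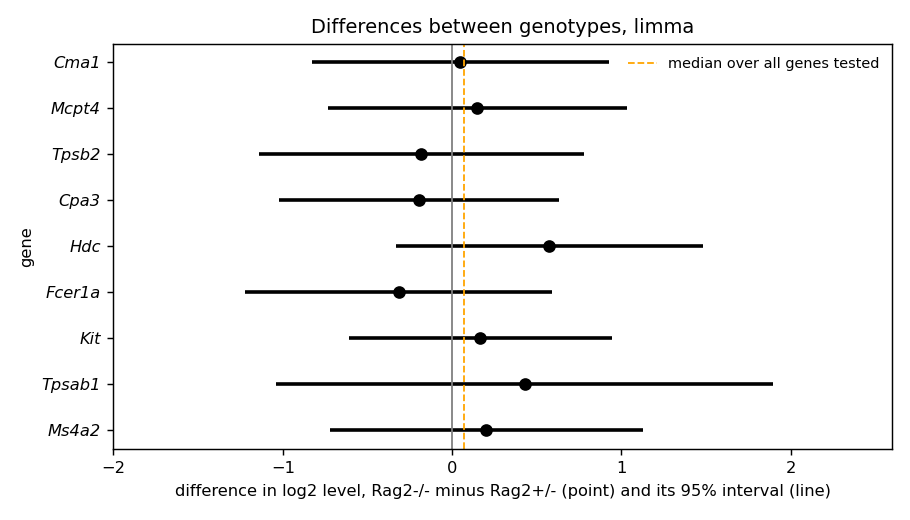
Difference in log2 level between 11 Rag2-/- and 8 Rag2+/- tumors for each mast cell gene (point, x axis) with its 95% interval from limma (line), a grey line at 0 and a dashed orange line at 0.07, the median over all 16663 genes tested. Every interval crosses 0, and the widest, that of Tpsab1, runs from -1.04 to 1.90.

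Skeletal muscle RNA varied widely between these tumors. The summed normalized FPKM of 12 skeletal muscle markers ranged from 360.1 to 115027 in Rag2-/- tumors and from 1959 to 175887 in Rag2+/- tumors, and 10 of the 12 markers were lower in Rag2-/- tumors at an unadjusted p under 0.05 in limma, beside 15.4% of all genes in either direction, and 0 of 12 at an adjusted p under 0.05. The mean log2 level of these markers was highest in the Rag2+/- tumor S56, at 13.32, and lowest in the Rag2-/- tumor S48, at 4.46. With the mean of these markers as a covariate, Cpa3 differed by 0.048, Tpsb2 by 0.037 and Fcer1a by 0.092, each turned from below to above 0, and 0 of 9 genes were called.

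Levels per length set the genes in an order that both genotypes together defined. Over the 19 tumors the mean log2 level was 4.54 for Cma1, 4.40 for Mcpt4, 4.26 for Tpsb2, 3.74 for Cpa3, 2.01 for Hdc, 1.50 for Fcer1a, 1.21 for Kit, 0.17 for Tpsab1 and -0.90 for Ms4a2. In a permutation test of paired differences, with p-values adjusted over the 8 neighboring pairs, Mcpt4 and Tpsb2 did not differ beyond their spread (adjusted p = 0.152), nor did Hdc and Fcer1a (adjusted p = 0.103) or Fcer1a and Kit (adjusted p = 0.187). Cma1 exceeded Mcpt4 by 0.14 in log2 level (permutation adjusted p = 0.0466, higher in 11 of 19 tumors). Tpsb2 exceeded Cpa3 by 0.52 in log2 level (permutation adjusted p = 0.00012, higher in 17 of 19 tumors). The break in the order was between Cpa3 and Hdc, a step of 1.72 in log2 level (permutation adjusted p = 0.00012, higher in 18 of 19 tumors).

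Variation between tumors of 1 genotype was larger for these genes than for most. The within-genotype SD of the log2 level was 0.83 for Kit, 0.91 for Cpa3, 0.97 for Cma1 and 1.06 for Tpsb2, and 1.61 for Tpsab1, beside a median of 0.62 over all genes tested. The SD of Kit exceeded that of 66.9% of the genes tested and the SD of Tpsab1 that of 94.6%. Between the lowest and the highest tumor, normalized FPKM plus 0.1 differed 11.8-fold for Cpa3, 12.7-fold for Cma1, 17.9-fold for Tpsb2 and 14.6-fold for Kit.

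The same few tumors were high or low for most of the genes. The Rag2-/- tumor S47 was among the 3 highest of 19 for 8 genes and the highest of all for 4. The Rag2+/- tumor S52 was among the 3 highest for 6 genes and S55 for 4. At the other end, the Rag2-/- tumor S48 was among the 3 lowest for all 9 genes, the lowest for 5 and level with S56 at the floor for Tpsab1, and the Rag2+/- tumor S56 among the 3 lowest for 7. The Rag2-/- tumor S41, the shallow library, was among the 3 highest for 5.

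**Figure D3:**
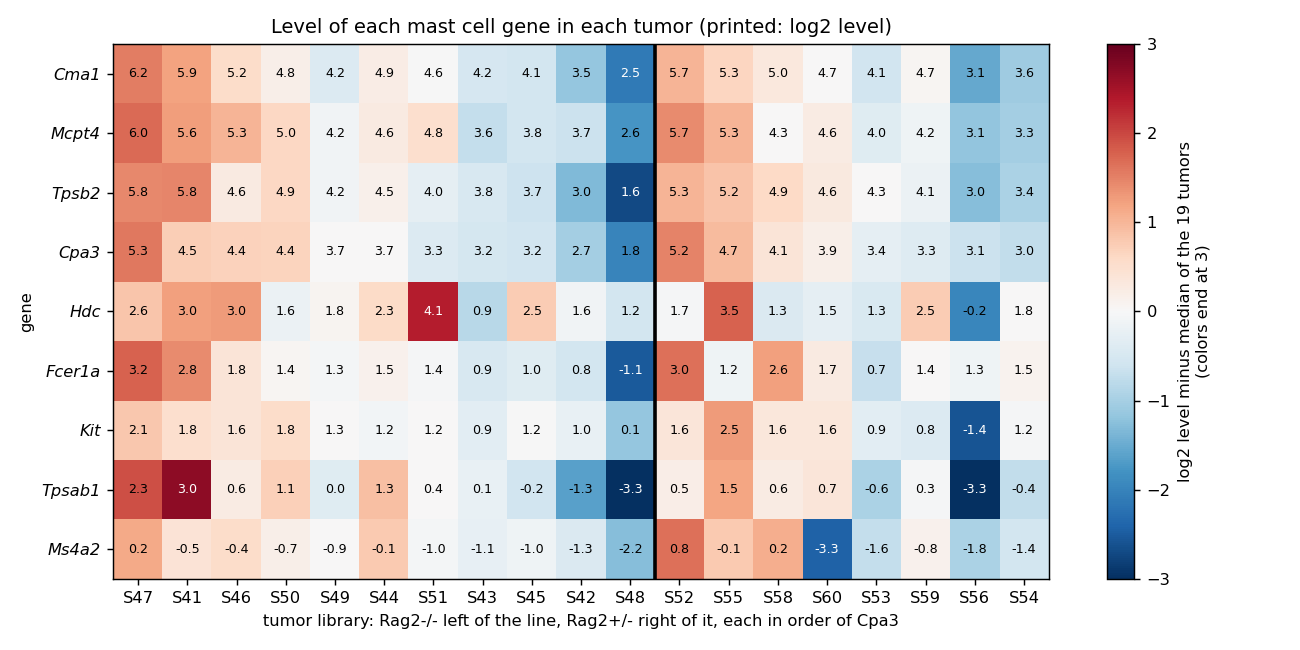
Log2 level (printed) of the 9 mast cell genes (rows, by mean level) in 11 Rag2-/- tumors (left of the line) and 8 Rag2+/- tumors (right of it), each ordered by Cpa3, colored by the difference from the median of the 19 tumors. Columns are mostly of 1 color, red for S47 and S52 and blue for S48 and S56, with the Hdc row breaking the pattern at S51.

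Whether the genes varied together across tumors was tested against Cpa3. Pearson's r with Cpa3 over the 19 tumors was 0.946 for Tpsb2, 0.936 for Mcpt4 and 0.930 for Cma1 (permutation p = 1e-05 for each, the smallest that 100000 permutations can give, adjusted p = 2.67e-05). Spearman's rho was 0.972, 0.932 and 0.939 (permutation adjusted p = 2.67e-05 for each). The receptor genes followed less closely, at r = 0.849 for Fcer1a (permutation p = 2e-05, adjusted p = 4e-05), r = 0.687 for Kit (permutation p = 0.00116, adjusted p = 0.00155) and r = 0.662 for Ms4a2 (permutation p = 0.00218, adjusted p = 0.00249). Their rho was 0.725 for Fcer1a, 0.858 for Kit and 0.781 for Ms4a2 (permutation adjusted p = 0.000789, 3.2e-05 and 0.000267). Tpsab1 had r = 0.785 (permutation p = 6e-05, adjusted p = 9.6e-05) and rho = 0.845 (permutation adjusted p = 3.2e-05). Hdc had r = 0.354 (permutation p and adjusted p = 0.136) and rho = 0.440 (permutation adjusted p = 0.0604) and was the only 1 of the 8 that did not pass.

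The relation to Cpa3 was seen within each genotype for Tpsb2, Mcpt4 and Cma1. In the 11 Rag2-/- tumors r was 0.962 for Tpsb2, 0.951 for Mcpt4, 0.958 for Cma1, 0.901 for Tpsab1, 0.960 for Kit, 0.931 for Fcer1a (permutation p = 1e-05) and 0.918 for Ms4a2 (permutation p = 0.0002). In the 8 Rag2+/- tumors r was 0.912 for Tpsb2, 0.961 for Mcpt4 and 0.899 for Cma1, and 0.634 for Tpsab1 (permutation p = 0.0848), 0.644 for Kit (permutation p = 0.0809), 0.643 for Fcer1a (permutation p = 0.0824) and 0.612 for Ms4a2 (permutation p = 0.108). Thus 7 of 8 genes passed an adjusted p under 0.05 with all tumors, and 3 of 8 within the 8 Rag2+/- tumors. Fewer tumors were available there, and r for Tpsab1, Kit, Fcer1a and Ms4a2 was also lower than in Rag2-/- tumors. What made the count lower was not tested. Without S47 and S48, the tumors farthest from the median of Cpa3, r was 0.910 for Tpsb2, 0.609 for Kit and 0.564 for Ms4a2, so those relations did not rest on these 2 tumors. In the 15 tumors that the study lists in its source data, which leave out S41, S46, S51 and S56, r for Kit was 0.863.

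**Figure D4:**
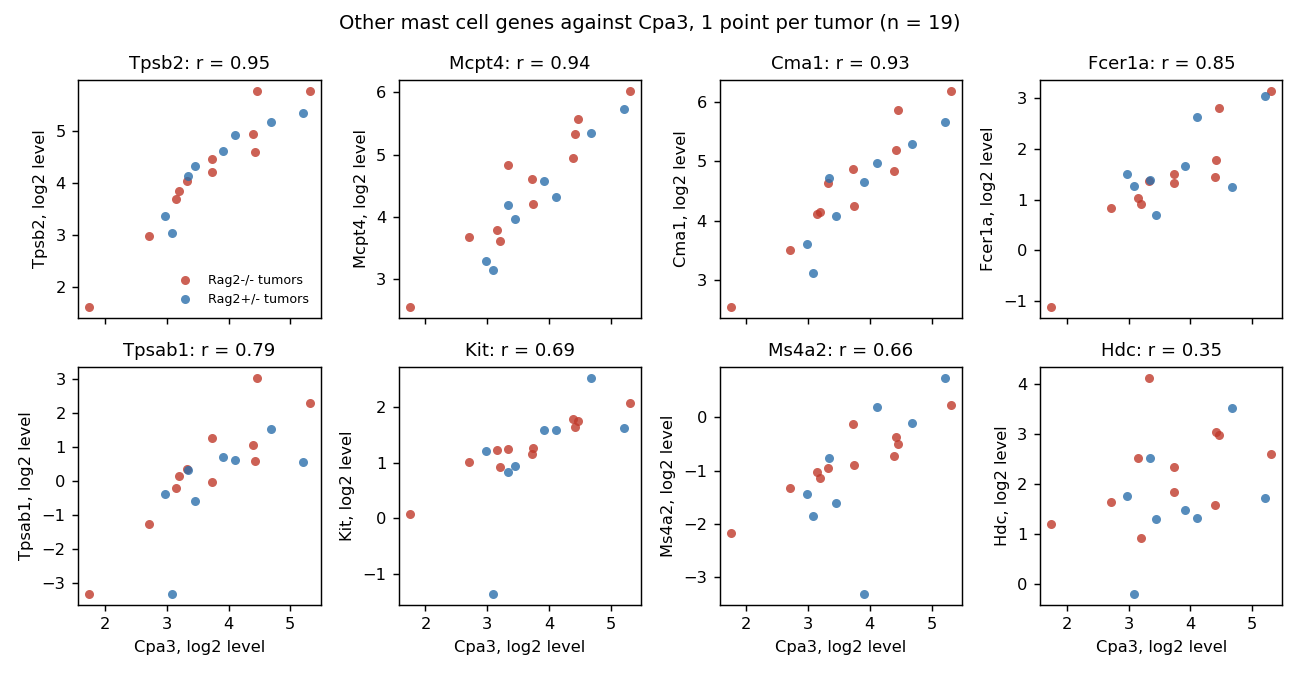
Log2 level of each of the other 8 mast cell genes (y axes) against that of Cpa3 (x axes), 1 point per tumor, red for Rag2-/- and blue for Rag2+/-, with Pearson's r over 19 tumors in each title. The points for Tpsb2, Mcpt4 and Cma1 follow a line, those for Hdc scatter, and the lone low points for Kit and Ms4a2 are the Rag2+/- tumors S56 and S60.

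Over all 36 pairs of the 9 genes r ran from 0.248 to 0.964 with a median of 0.729, and over the 6 pairs of Cpa3, Cma1, Tpsb2 and Mcpt4 from 0.920 to 0.964. The highest pair was Cma1 and Mcpt4. Hdc reached 0.655 with Kit and had 0.248 with Fcer1a, the lowest of the 36. With the proteases, Hdc had 0.62 for Tpsab1, 0.60 for Mcpt4, 0.56 for Cma1, 0.43 for Tpsb2 and 0.35 for Cpa3. These r values describe the same 19 libraries and are not independent of each other.

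Levels relative to Cpa3 in the same tumor were much steadier than the levels themselves for the main proteases. The SD over 19 tumors of the log2 level minus that of Cpa3 was 0.33 for Mcpt4, 0.35 for Cma1 and 0.35 for Tpsb2, where the SD of the log2 level itself was 0.95, 0.94 and 1.03. For Fcer1a the SD relative to Cpa3 was 0.52 and that of its own level 0.97, and for Kit they were 0.68 and 0.81. For Hdc the SD relative to Cpa3, 1.08, was not smaller than that of its own level, 1.002. Relative to Cpa3, Mcpt4 was at 0.81 ± 0.31 (SD, n = 11) in Rag2-/- and 0.47 ± 0.26 (SD, n = 8) in Rag2+/- tumors. That gap of 0.34 was not tested.

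The chymase and tryptase genes lie in 2 clusters, while Cpa3 lies apart on chromosome 3, and within the clusters levels differed widely between neighbors. Coordinates are those of GENCODE vM21 on GRCm38. From Cma1 to Ctsg the chymase cluster spans 161.1 kb of chromosome 14, at chr14:55941451-56102574. Cma1 and Mcpt4 were above the floor in 19 of 19 tumors, while Mcpt9 was listed at the floor in every tumor and Mcpt1, a chymase of mucosal mast cells, lay above it in 2 Rag2+/- tumors at no more than 7 estimated fragments. Ctsg, the cathepsin G gene, was above the floor in 16 tumors, and Cma2 in 5.

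Mcpt2, the other mucosal chymase gene, was scattered. It ranged from the floor through a median of -1.17 to 1.20 in Rag2-/- tumors and from the floor through 0.93 to 4.79 in Rag2+/- tumors. Its top was the Rag2+/- tumor S58, with an estimated 855 fragments against a median of 10 per tumor. Mcpt2 did not differ between genotypes beyond its spread (difference -1.59, SE 1.01, limma adjusted p = 0.407). Between their GENCODE transcripts, Mcpt2 and Mcpt4 were identical at 79.9% of 968 aligned positions and no 150-base stretch of one matched the other with 2 or fewer mismatches.

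On chromosome 17 the tryptase cluster from Prss34 to Tpsg1 spans 76.0 kb, at chr17:25298394-25374442. Tpsb2 was above the floor in 19 tumors, Tpsab1 in 17, Tpsg1, a membrane-anchored tryptase, in 16 and Prss34, a basophil protease, in 18 at a mean log2 level of -1.73. Tpsab1 and Tpsb2 were identical at 76.5% of 898 aligned positions, and they too shared no 150-base stretch with 2 or fewer mismatches.

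**Figure D5:**
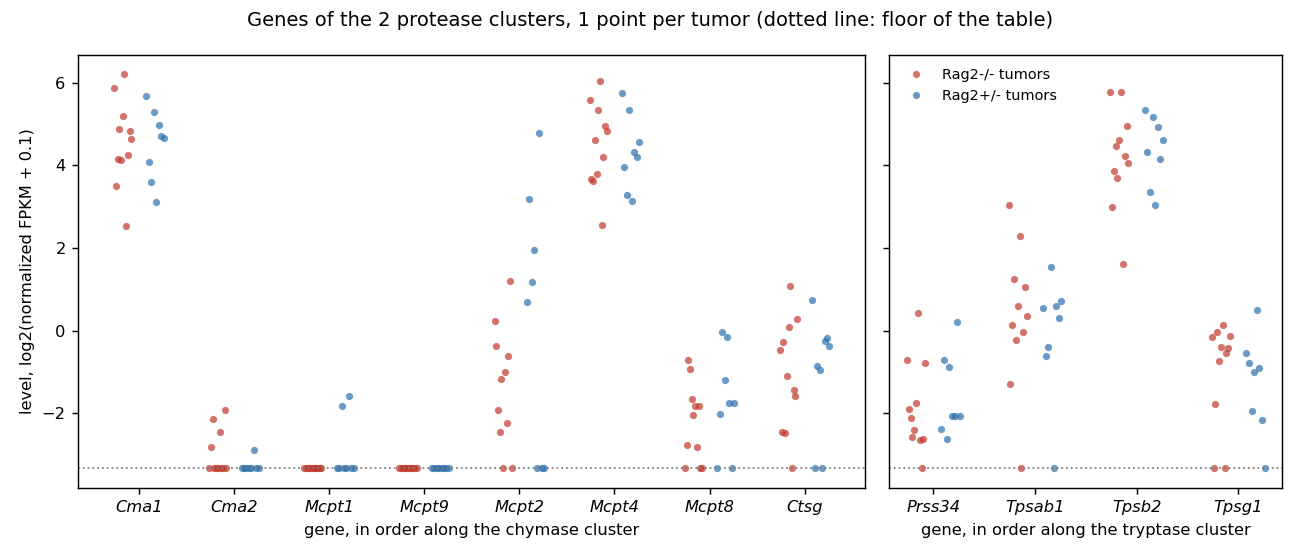
Log2 level (y axis, normalized FPKM plus 0.1) of 8 genes of the chymase cluster (left) and 4 of the tryptase cluster (right), in order along the chromosome, 1 point per tumor, red for Rag2-/- and blue for Rag2+/-, with the floor at -3.32 dotted. Cma1, Mcpt4 and Tpsb2 stand above 1.6 in every tumor, Mcpt9 lies at the floor in all 19, and Mcpt2 spreads from the floor to 4.79.

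The other genes of mast cell biology were taken in lists by role. Of the 6 other granule proteases 3 passed the filter on low values (Mcpt2, Ctsg and Tpsg1) and 0 were called by limma. The granule matrix and loading list holds Srgn, the serglycin core protein that binds the proteases, Ndst2, which sulfates its heparin chains, Slc18a2, which loads amines, and Rab27b, which acts in secretion. None of these 4 was called, and the difference of Ndst2, 0.44 (SE 0.14), had an unadjusted limma p of 0.00563 and an adjusted p of 0.314. Its mean log2 level was 3.36 in Rag2-/- and 2.92 in Rag2+/- tumors, and the gene is broadly expressed.

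Of 7 other receptors of mast cells, 0 were called. Mrgprb2, the receptor through which cationic peptides activate connective tissue mast cells, ranged from -2.56 to 0.68 in Rag2-/- tumors and from the floor to -0.31 in Rag2+/- tumors. Il1rl1, the receptor for interleukin-33, had a mean log2 level of 6.39, far above that of any of the 9 genes, and Fcer1g, the chain of the IgE receptor that other Fc receptors share, one of 6.97. Il3ra differed by 0.36 (SE 0.16) at an unadjusted limma p of 0.0355 and an adjusted p of 0.314.

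Signaling and mediator genes gave no call either. Of 10 genes of IgE receptor signaling 0 were called, and Lat, an adaptor that T cells also use, had the lowest unadjusted p of the list, with a mean log2 level of -0.57 in Rag2-/- and 1.18 in Rag2+/- tumors (difference -1.75, SE 0.61, limma adjusted p = 0.314). Of 8 genes for lipid and amine mediators 0 were called. Tph1, the enzyme that starts serotonin synthesis outside the brain, had a mean log2 level of -0.84 in Rag2-/- and 0.50 in Rag2+/- tumors (difference -1.35, SE 0.42, limma adjusted p = 0.314, unadjusted p = 0.00431). The prostaglandin D2 synthase gene Hpgds differed by 0.47 (SE 0.34, limma adjusted p = 0.45).

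Of 6 transcription factors, 5 passed the filter and 0 were called. Gata2 had a mean log2 level of 1.47, while Gata1 lay near the floor, at a mean of -2.55 and no more than 19 estimated fragments in a tumor. With genotype means taken off, Gata2 had r = -0.19 with the mean of Cpa3, Cma1, Tpsb2, Tpsab1 and Mcpt4. Without S41 that r was -0.32, and neither value was tested. Of 9 growth factors and cytokines 6 passed and 0 were called. Kitl, the ligand of Kit, was measured in every tumor, at a mean log2 level of 4.06 in Rag2-/- and 3.58 in Rag2+/- tumors (difference 0.48, SE 0.20, limma adjusted p = 0.314, unadjusted p = 0.0251). Il3 and Il9 were listed at the floor in all 19 tumors, and Il33, which acts through Il1rl1, had a mean log2 level of 4.76. Of 6 genes for histamine receptors and breakdown 3 passed and 0 were called, with Hrh2 at a mean log2 level of 0.02 and Hnmt, which methylates histamine, at 1.08. Ighe, the heavy chain gene of IgE, was listed at the floor in all 19 tumors, in the Rag2+/- hosts as well. Counts over all these lists stood beside the 0.132% of all genes called, and list medians of the difference ran from -0.20 for the transcription factors to 0.37 for the lipid and amine mediators. No list had more than 1 gene at an unadjusted p under 0.05 in limma, beside 15.4% of all genes.

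Markers of basophils, eosinophils and melanocytes, cell types that share genes with mast cells, were low, and their levels were set beside those of Cpa3. Basophils also express Fcer1a, Ms4a2 and Hdc. The summed normalized FPKM of 3 basophil markers (Mcpt8, Prss34 and Cd200r3) ranged from 0.299 to 2.97 in Rag2-/- and from 0.336 to 1.67 in Rag2+/- tumors, and 0 of 3 were called. Cd200r3 had a median of 42 estimated fragments per tumor, against 3 for Mcpt8 and 3 for Prss34. The 5 eosinophil markers summed to between 0.146 and 2.41 in Rag2-/- and between 0.403 and 2.34 in Rag2+/- tumors, and the 5 melanocyte markers, for a cell type that also uses Kit, to between 0.0677 and 1.29 and between 0.0499 and 0.964, with 0 called of the 3 eosinophil markers and the 1 melanocyte marker that passed the filter. No marker of these 3 lists was at the floor in all tumors.

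Over 13 marker lists, none had a mean level that was related to Cpa3 across the 19 tumors at an adjusted p under 0.05. The nearest were the fibroblast markers (r = 0.585, permutation p = 0.00883, adjusted p = 0.115, and rho = 0.612, adjusted p = 0.0794), with r = 0.623 within Rag2-/- (permutation p = 0.0415) and r = 0.695 within Rag2+/- tumors (permutation p = 0.0466). The basophil markers followed (r = 0.532, permutation p = 0.019, adjusted p = 0.123, and rho = 0.449, adjusted p = 0.314), with r = 0.738 within Rag2-/- (permutation p = 0.0106) and r = 0.038 within Rag2+/- tumors (permutation p = 0.927), a difference that was not tested. Without S47 and S48 the r of the basophil markers was 0.216. Its 3 genes were unlike each other: with genotype means taken off, r with the mean of the 5 proteases was 0.601 for Cd200r3, 0.432 for Prss34 and -0.26 for Mcpt8. For the skeletal muscle markers r was 0.282, for the T cell markers 0.285, for the macrophage markers 0.360 and for the NK cell markers 0.322, with permutation adjusted p between 0.333 and 0.349. Pooled values cover genotypes whose T cell marker levels differed. In the 11 Rag2-/- tumors the mean of the T cell markers lay between -2.57 and -1.395, against a floor of -3.32. Cd3e was at the floor in all 11, so r within Rag2-/- tumors rested on low values. Within Rag2-/- and Rag2+/- tumors, r was 0.543 (permutation p = 0.082) and 0.647 (permutation p = 0.0826) for the T cell markers, and 0.334 (permutation p = 0.317) and 0.772 (permutation p = 0.0205) for the NK cell markers. For the skeletal muscle markers r was 0.487 (permutation p = 0.125) and -0.052 (permutation p = 0.898) within the genotypes, and 0.575 (permutation p = 0.0249) in the 15 tumors of the study's source data. These within-genotype and 15-tumor p-values are not adjusted. The neutrophil markers had r = 0.191, the B and plasma cell markers 0.201, the endothelial markers 0.235, the adipocyte markers 0.324, the keratinocyte markers 0.413, the melanocyte markers 0.225 and the eosinophil markers 0.322. For 4 of these lists the sign of r differed between Rag2-/- and Rag2+/- tumors, at 0.563 and -0.457 for the eosinophil, 0.526 and -0.406 for the melanocyte, 0.399 and -0.278 for the endothelial and 0.419 and -0.105 for the neutrophil markers, and the difference was not tested. The eosinophil and melanocyte means lay near the floor of -3.32, which limits those r values. They ran from -3.01 to -1.26 and from -3.17 to -1.94 in Rag2-/- tumors. In Rag2+/- tumors they ran from -2.52 to -1.71 and from -3.21 to -2.31. In the 15 tumors the keratinocyte markers had r = 0.532 (unadjusted permutation p = 0.0474).

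Between genotypes, the T cell markers were lower in Rag2-/- tumors for 7 of 10 genes and the B and plasma cell markers for 3 of the 5 (of 8) that passed the filter, whereas 0 genes were called among the NK cell, macrophage, fibroblast, adipocyte and endothelial markers, among the 6 (of 7) neutrophil markers that passed the filter or for the 1 (of 5) keratinocyte marker that did. At an unadjusted p under 0.05 in limma, 5 of 6 NK cell markers were higher in Rag2-/- tumors, beside 15.4% of all genes in either direction, and 1 of 6 endothelial markers was lower, close to that background. The part of these cell types in the levels of the 9 mast cell genes was not tested.

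Genes whose pattern was most like that of the proteases were named by the correlation, across the 19 tumors and after each genotype's mean was taken off, with the mean of Cpa3, Cma1, Tpsb2, Tpsab1 and Mcpt4. Those 5 rank among the first by construction. Of the other genes of the set, Fcer1a ranked 6 and Kit 10 of 16663 genes, Ms4a2 ranked 66 (r = 0.647) and Hdc 209 (r = 0.567), where the median r over all genes was -0.01. Among genes outside the set the highest were Mrgprb1 (r = 0.846) and Mrgprx2 (r = 0.839), relatives of Mrgprb2, which itself had r = 0.791. Trim34a (r = 0.822), S100a4 (r = 0.799), Colca2 (r = 0.763), Slc6a4 (r = 0.758), Rufy4 (r = 0.757) and S100a10 (r = 0.741) were also among the first 10 genes outside the set. Slc6a4 encodes the serotonin transporter.

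The levels of these genes differed widely. Mrgprb1 had a mean log2 level of -0.45 and Mrgprx2 of -2.21, the latter with 3 tumors at the floor, whereas S100a4 was at 7.39 and S100a10 at 8.30 and are expressed by many cell types. The list depended on the tumors used. In the 15 tumors that the study lists in its source data for this model, 3 of the first 10 genes were again among the first 10, and without the shallow tumor S41, 5 of 10. Mrgprb1 had r = 0.878 in the 15 tumors and 0.823 without S41. These r values describe the libraries and carry no test.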

How the data were processed

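Bulk RNA of 19 p53/MCA sarcomas (11 Rag2-/-, 8 Rag2+/-) was sequenced from NEBNext Ultra II libraries on an Illumina instrument in paired-end mode. The authors deposited 1 table of log2 values, upper-quartile normalized FPKM plus 0.1. For how it was made, the study's methods name the Omicsoft aligner in Array Studio with Ensembl gene models, under neoantigen expression. Under differential expression they name Trimmomatic, STAR with another version number than below, HTSeq and mm10. The submitters' processing notes name Trimmomatic 0.36, STAR 5.5.4b, HTSeq and mm10. Which applies to this table is not settled. Since the values are not counts, no count model was used. Whether counting used strand is not given in the sources used here.

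Ensembl IDs were matched to symbols for 48349 of 48795 genes. Genes above 0.1 normalized FPKM in at least 8 of 19 tumors, whatever their genotype, were tested in limma 3.58.1 (R 4.3.3; lmFit and eBayes with trend, genotype only), with Benjamini-Hochberg adjustment over 16663 genes and a threshold of 0.05, after the scripts had been tested on simulated data. Correlations used two-sided permutation tests with 100000 draws, adjusted within each family (8 genes, 13 marker lists), and the order of levels used sign permutations of paired differences, also 100000. Fragments were estimated from the step between low values of single-transcript genes. Between 78.5% and 88.3% of low values fell within 0.05 of a whole number, so fragments are estimates and cover counting only. No 2 libraries held identical values, and the labels give no batch.

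The 9 genes and all lists were chosen with earlier results of these data known. Ndst2, Il3ra, Lat, Hpgds, Rag2 and the genes of the clusters were named after their values were seen. Tph1 had the lowest unadjusted limma p of its list. The other genes named are the 9, list genes that passed the test or define their list, and the 10 genes most like the proteases. One of those 10 genes is not reported here. Alternatives were each tumor left out, 15 tumors, pseudocount, filter, normalization, variance model, covariates and the exact test.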

Additional observations from a re-analysis of the deposited data

Results flagged for a closer look

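Within the 8 Rag2+/- tumors, 7 of 30 sets of values examined had 1 tumor whose gap to its nearest neighbor exceeded Dixon's critical value of 0.526 of the range. For independent sets of normal values, chance alone does this in about 1 set in 20. The 30 sets share the same 8 tumors and some values lie at the floor, so the count of 7 cannot be set against that rate. Of the 7 flags, 4 belonged to S56, the tumor with the largest step per fragment after S41. Tpsab1 was at -3.32 there against -0.60 to 1.53 in the other Rag2+/- tumors, and Kit at -1.35 against 0.83 to 2.52. The mean log2 level of the macrophage markers in S56 was 4.55 against 5.59 to 6.48, and that of the endothelial markers 4.31 against 3.27 to 3.74. In S55 the fibroblast markers were at 7.92 against 6.30 to 6.96 and the keratinocyte markers at -1.22 against -2.82 to -2.15. In S60, Ms4a2 relative to Cpa3 was at -7.24 against -5.06 to -3.91, since no Ms4a2 fragment was listed.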

How the results depend on the processing

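No mast cell gene was called under any of the alternatives run, and adjusted p-values over them ran from 0.249 to 1. Signs were not stable. In the 15 tumors of the study's source data the difference was -0.40 for Cma1, -0.40 for Tpsab1, -0.31 for Mcpt4, -0.28 for Kit and -0.12 for Hdc, all turned below 0, and -0.46 for Cpa3, -0.61 for Tpsb2 and -0.61 for Fcer1a, each lower than with 19 tumors. With 1 tumor left out at a time it ran from -0.36 to 0.001 for Cpa3, from -0.15 to 0.25 for Cma1, from -0.37 to 0.074 for Tpsb2, from -0.034 to 0.80 for Tpsab1, from -0.0195 to 0.35 for Mcpt4, from -0.18 to 0.37 for Kit and from -0.13 to 0.45 for Ms4a2. For Fcer1a and Hdc, again with 1 tumor left out, the difference ran from -0.49 to -0.068 and from 0.31 to 0.84. Ms4a2 was at -0.0064 with a pseudocount of 1, and with muscle markers as a covariate Cpa3 was at 0.048, Tpsb2 at 0.037 and Fcer1a at 0.092. Over all genes, 22 calls became 42 in the 15 tumors, 41 without the Rag2-/- tumor S51 (19 to 41 with 1 tumor left out) and 4 among genes with a mean log2 value above 0, where calls on the lists went from 10 to 2. Within Rag2+/- tumors 3 of 8 correlations with Cpa3 passed, where all tumors gave 7. The fewer tumors or genes entered those fits by construction, and the cause of the other changes was not tested. No paired analysis was possible because the number in each title belongs to 1 tumor and nothing in the labels ties a tumor of one genotype to a tumor of the other. The depth of S41 and the few fragments of Ms4a2 and Tpsab1 limit those values.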
